A study of Mus musculus with 14 samples.

Results

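GATA2 binding sites were compared between Chd7 knockout (KO) and wild-type (WT) erythroblasts by setting the GATA2 ChIP-seq peak list of one genotype against that of the other. The KO list held 80611 peaks and the WT list 68199, which make up 148810 of the 541869 peaks in the 6 lists of the series. Both GATA2 lists were used whole, without selection on the measured values. The cells were of the G1ER line, a mouse erythroblast line that lacks its own GATA1 and carries a GATA1 fusion protein switched on by estradiol, a background that both genotypes share. The KO cells were Chd7-/- and the WT cells were labelled wild-type. Chd7 encodes a chromatin remodelling ATPase of the CHD family. The same antibody against GATA2, Santa Cruz sc9008, was used in both, on cells kept in erythropoietin and stem cell factor. The labels do not say whether the knockout cells were 1 clone, whether estradiol had been given to the cells used for ChIP, or which input library served which list. Each genotype had 1 GATA2 library, so no difference between genotypes was tested, and every interval given is a 95% interval that covers counting error only.

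GATA2 is a zinc finger transcription factor of blood stem and progenitor cells, mast cells and early erythroid and megakaryocytic cells. It binds DNA at the letters GATA and is recruited with TAL1, LMO2, LDB1 and the FOG cofactors. As red cell precursors mature, GATA1 takes over many sites that GATA2 held before, and GATA2 itself is shut off. In mast cells GATA2 stays on and acts at the receptor and granule genes of that lineage.

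Binding strength is given below as summit fragments, the whole number of sequenced fragments that covered the highest point of a peak. To show what the strongest binding in these cells looked like, the promoters of 6 of the 29 listed genes with a summit inside the promoter window in both lists are printed first, taken by the highest sum of fragments. The windows come from RefSeq on GRCm38.p6, run from 250 bases before to 50 bases after an annotated start, and read 5′ to 3′ on the strand of the gene. A gene can have several such starts. The windows of Cpox and Kel lie at the outer end of the gene, whereas those of Il1rl1, Uros, Il4 and Tfr2 lie inside the gene as the table bounds it, at an internal start. Capitals mark the letters GATAA or, for a site on the other strand, TTATC. Il1rl1, the interleukin 33 receptor gene of mast cells, lies at chr1:40429320-40429619 on the plus strand. Cpox and Uros, 2 genes of heme synthesis, lie at chr16:58669958-58670257 on the plus strand and chr7:133702451-133702750 on the minus strand. Kel, a red cell blood group gene, lies at chr6:41704276-41704575 on the minus strand. The promoter of the cytokine gene Il4 is at chr11:53617289-53617588 on the minus strand. Tfr2, which encodes transferrin receptor 2, lies at chr5:137570725-137571024 on the plus strand.
Il1rl1: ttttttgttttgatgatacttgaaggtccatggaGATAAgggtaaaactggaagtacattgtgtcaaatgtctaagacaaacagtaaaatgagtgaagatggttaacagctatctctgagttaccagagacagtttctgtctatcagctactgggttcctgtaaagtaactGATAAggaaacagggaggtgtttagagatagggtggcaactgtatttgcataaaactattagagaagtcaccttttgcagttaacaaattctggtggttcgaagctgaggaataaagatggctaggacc
Cpox: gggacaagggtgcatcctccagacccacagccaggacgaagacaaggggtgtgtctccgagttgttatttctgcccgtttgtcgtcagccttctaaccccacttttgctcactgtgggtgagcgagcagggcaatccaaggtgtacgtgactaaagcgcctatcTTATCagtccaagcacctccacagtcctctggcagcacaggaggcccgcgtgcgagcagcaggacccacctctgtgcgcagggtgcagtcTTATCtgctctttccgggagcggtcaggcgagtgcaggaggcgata
Kel: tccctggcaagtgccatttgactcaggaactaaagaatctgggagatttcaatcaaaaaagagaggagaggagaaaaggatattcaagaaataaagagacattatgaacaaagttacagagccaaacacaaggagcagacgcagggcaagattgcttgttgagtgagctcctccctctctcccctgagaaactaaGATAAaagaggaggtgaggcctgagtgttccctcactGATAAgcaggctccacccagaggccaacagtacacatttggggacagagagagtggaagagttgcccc
Il4: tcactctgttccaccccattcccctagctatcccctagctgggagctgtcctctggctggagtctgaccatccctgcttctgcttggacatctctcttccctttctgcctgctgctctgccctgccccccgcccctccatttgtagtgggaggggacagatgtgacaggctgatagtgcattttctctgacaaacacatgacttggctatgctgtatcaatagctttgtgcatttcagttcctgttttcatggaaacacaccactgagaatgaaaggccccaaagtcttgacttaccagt
Uros: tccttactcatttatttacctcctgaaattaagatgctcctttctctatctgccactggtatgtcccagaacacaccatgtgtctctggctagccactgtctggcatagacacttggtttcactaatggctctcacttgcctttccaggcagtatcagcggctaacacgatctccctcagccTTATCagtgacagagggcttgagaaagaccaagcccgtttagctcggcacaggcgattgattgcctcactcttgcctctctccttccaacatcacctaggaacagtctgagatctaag
Tfr2: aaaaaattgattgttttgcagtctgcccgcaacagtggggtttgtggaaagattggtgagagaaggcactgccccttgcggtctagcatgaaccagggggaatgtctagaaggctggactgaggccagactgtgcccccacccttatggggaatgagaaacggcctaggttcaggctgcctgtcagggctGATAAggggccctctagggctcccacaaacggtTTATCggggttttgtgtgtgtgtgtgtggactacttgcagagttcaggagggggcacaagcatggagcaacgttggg

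At the Il1rl1 promoter the summit rested on 282 fragments in KO (250 to 317) and 286 in WT (254 to 321). The Cpox summit had 280 fragments in KO and 283 in WT, the Kel summit 266 in KO and 271 in WT, and the Uros summit 254 in KO and 258 in WT. At Il4 there were 257 fragments in KO and 259 in WT. These 5 promoters were thus bound to nearly the same height in both lists, near the ceiling of the measure, which was 282 fragments in KO and 286 in WT, 2 times the smallest peak width of 141 bp in KO and 143 bp in WT. At such heights a difference between genotypes is understated. Tfr2, on chromosome 5, was the one with a wider gap, at 258 fragments in KO (227 to 291) against 205 in WT (178 to 235). Where GATAA was present, the summit lay 6 to 35 bp from the nearest copy in KO and 8 to 39 bp in WT. The Il4 window held no copy of these letters on either strand, which says only that they are not in this window.

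Elongating RNA polymerase II, marked by phosphorylated serine 2 (S2P), gave a check of the cell type. S2P peaks lay on 9 of 10 erythroid marker genes in both genotypes, with a median of 48.4% of the gene covered in KO and 45.6% in WT, and Slc4a1, the anion exchanger of the mature red cell, at 0. They lay on 1 of 5 mast cell markers (Cpa3), 2 of 5 megakaryocyte markers (Gp1ba and Itga2b), 1 of 5 myeloid markers (Csf1r) and 0 of 5 lymphoid markers in both genotypes. The Chd7 gene had no S2P in either list, so it gave no check of the genotype labels. Its only GATA2 peak was in KO, with 15 fragments.

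The KO list was 1.18 times as long as the WT list, and most peaks were found in both. The median summit had 24 fragments in KO and 23 in WT, the lowest 7 in both. Sharing of a peak means that at least 1 bp of it lay under a peak of the other genotype. In KO 68.8% of peaks were shared (68.5 to 69.1, exact Clopper-Pearson) and in WT 81.5% (81.2 to 81.8), which left 25163 KO-only and 12630 WT-only peaks. KO-only peaks were weak, with a median of 15 fragments and quartiles of 12 and 20, as were WT-only peaks, with a median of 14 and quartiles of 12 and 18. Shared peaks had a median of 32 fragments in KO and 28 in WT. Only 176 KO-only and 40 WT-only peaks reached 50 fragments.

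Where 1 KO peak overlapped 1 WT peak and no other, the heights were set against each other at 53508 paired summits. The summits of a pair lay a median of 19 bp apart, 82.4% of them within 50 bp and 4.74% over 100 bp. Each fragment number was first divided by the lowest local background of its list, 1.57 fragments in KO and 1.48 in WT, which follows the depth of the library. Outside chromosome 5 the 50230 pairs had a median log2 difference, KO over WT, of 0.09, and the other 20 chromosomes lay between 0.07 on chromosome 16 and 0.12 on chromosome 10. A difference of 2-fold or more is named higher or lower below. In that sense 1139 pairs outside chromosome 5 were higher in KO (2.27%) and 831 were lower (1.65%). Over all chromosomes these were 1497 and 846 pairs, and by the deposited fold enrichment 2919 and 1419. Pairs with a mean of 30 to 50 fragments had a median log2 of 0.15, whereas those of up to 15 fragments and those over 100 had 0.01 and 0.04.

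Chromosome 5 stood apart from every other chromosome. It held 5648 KO and 3876 WT peaks, a ratio of 1.46, against ratios of 1.12 to 1.23 on the other chromosomes. KO peaks there were shared in 60.1% of cases (58.8 to 61.4), below the 67.4% to 72.2% of the other chromosomes, and WT peaks in 88.1% (87.0 to 89.1), above their 77.0% to 85.0%. KO-only peaks outnumbered WT-only peaks by 2254 to 463, a ratio of 4.87, against 1.56 to 2.33 elsewhere. The 3278 pairs of chromosome 5 had a median log2 of 0.46, or 1.37-fold, with quartiles of 0.17 and 0.77. Of them 358 were 2-fold or more higher in KO (10.9%) and 15 were lower (0.458%).

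**Figure D1:**
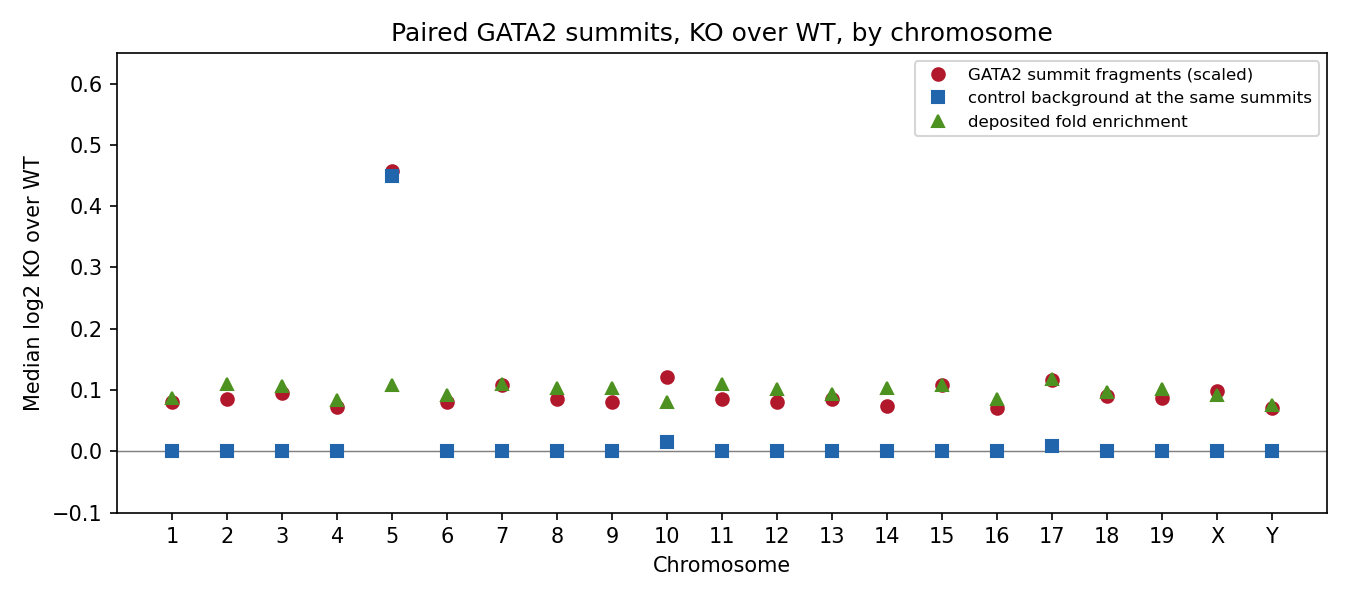
Median log2 difference, KO over WT, at paired GATA2 summits on each chromosome, for scaled summit fragments (circles), the local control background (squares) and the deposited fold enrichment (triangles). On chromosome 5 the fragments stood at 0.46 and the background at 0.45, while the fold enrichment, at 0.11, lay among the other chromosomes.

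The local control background under the same summits differed on chromosome 5 too. Its median log2, KO over WT, was 0.45, or 1.37-fold, on chromosome 5, and between 0 and 0.01 on the other chromosomes. The deposited fold enrichment, which divides the fragments by that background, had a median log2 of 0.11 on chromosome 5 and of 0.08 to 0.12 elsewhere. All 3 values were spread along the whole chromosome. In 16 bins of 10 Mb with at least 20 pairs each, the median log2 of the fragments ran from 0.25 to 0.55, that of the background from 0.15 to 0.56 and that of the fold enrichment from 0.01 to 0.18. In 252 such bins of the other chromosomes the fragments ran from −0.29 to 0.50, with 4 bins above the lowest bin of chromosome 5, and the background ran from −0.09 to 0.15, which reaches the lowest value of chromosome 5. The part of the background in the KO excess on chromosome 5 was not tested.

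**Figure D2:**
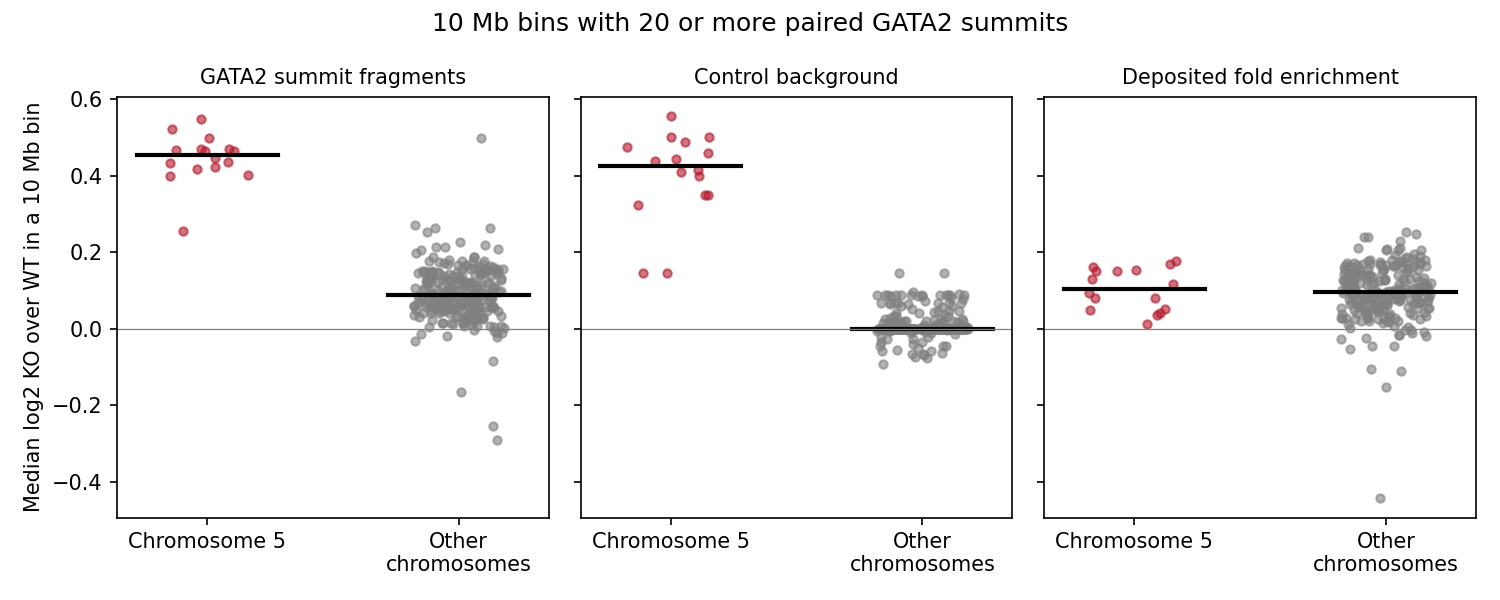
Each point is the median log2 difference, KO over WT, of the paired GATA2 summits in a bin of 10 Mb (20 or more pairs), for scaled fragments, control background and deposited fold enrichment, and black lines are medians over bins. The 16 bins of chromosome 5 lie higher in the first 2 panels, with medians of 0.45 and 0.43, and lie among the 252 other bins in the third, where both medians are 0.10.

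The background is not independent between the factors of a genotype. At 334 summits that the KO GATA2 and KO RUNX1 lists place at the same base, the scaled background was equal within 0.005 in 100% of cases, and likewise at 253 summits of the WT lists. Between the KO and WT GATA2 lists it was equal at 5.26% of 894 such summits.

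KO was higher on chromosome 5 at every strength of binding. Pairs there with a mean of up to 15 fragments had a median log2 of 0.18, beside 0.01 elsewhere, and pairs with 30 to 50 fragments 0.60, beside 0.15. Among KO peaks of 16 to 20 fragments 33.5% were shared on chromosome 5 (30.4 to 36.6) and 56.8% elsewhere (55.9 to 57.7). Among WT peaks of that height 84.3% were shared on chromosome 5 (81.3 to 86.9) and 74.8% elsewhere (74.0 to 75.6). Above 100 fragments nearly all peaks were shared, 99.7% of KO and 100% of WT peaks on chromosome 5. Pairs there with a mean over 100 fragments had a median log2 of 0.32 for the fragments, 0.53 for the background and −0.13 for the fold enrichment, and this class includes summits at the ceiling.

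**Figure D3:**
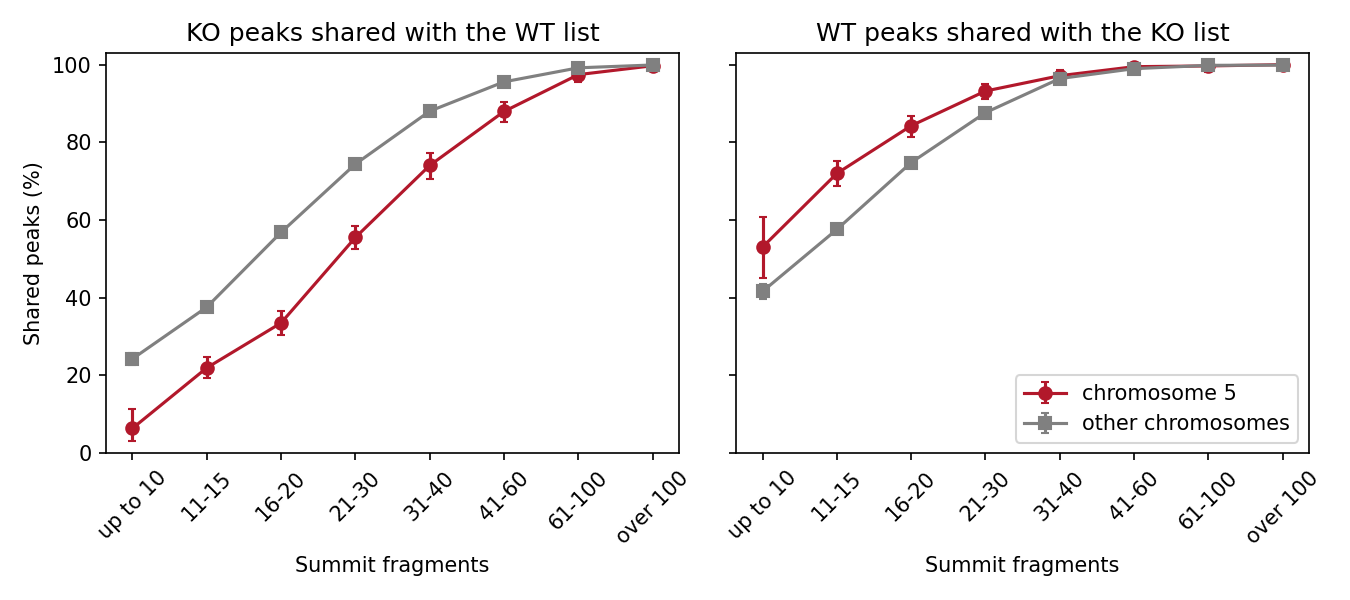
Share of GATA2 peaks that overlap a peak of the other genotype, by summit fragments, for KO peaks (left) and WT peaks (right), with exact 95% intervals. Chromosome 5 lies below the other chromosomes for KO peaks up to 100 fragments and above them for WT peaks up to 30 fragments.

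Across genes, a GATA2 summit lay in or within 5 kb of 13349 of 21883 protein-coding genes in KO (61%) and 12375 in WT (56.6%), and 11741 genes had one in both. In KO alone 1608 genes had one (7.35%), and in WT alone 634 (2.9%). Most of these rested on a single weak peak, 79.7% of the KO-alone genes and 89.6% of the WT-alone genes, and their strongest summits had a median of 16 fragments in KO and 14 in WT. With lists of equal length the genes bound in KO alone numbered 1129 and those bound in WT alone 959, so the gap was much smaller. On chromosome 5, 145 of 1268 genes were bound in KO alone and 18 in WT alone. The gene table holds no exons, so a summit is called in a gene without saying whether it is exonic or intronic.

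The 15 lists of genes described next hold 208 genes of the table. Of these, 158 had a peak in KO and 158 in WT, 76.0% in each genotype, beside 61.0% of all protein-coding genes in KO and 56.6% in WT. In KO alone 8 listed genes had a peak and in WT alone 8, beside 1608 and 634 of all genes. The listed genes held 1189 KO and 1047 WT peaks, a ratio of 1.14, against 1.19 over all protein-coding genes. By number of peaks 84 listed genes had more in KO, 28 fewer and 54 an equal number. Over all protein-coding genes these were 6757, 2384 and 4842. Outside chromosome 5 the 839 pairs of the listed genes had a median log2 of 0.15, beside 0.10 for the 34033 pairs of all genes. Of the 839, 19 were 2-fold or more higher in KO, beside 741 of the 34033, a similar rate. Another 5 were lower, beside 472 of the 34033, a smaller rate that rests on few pairs. The few higher and lower pairs counted for each list below have these numbers as their background.

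Among the GATA factors and their FOG cofactors, Gata2 itself carried 8 peaks in KO and 8 in WT. The strongest Gata2 peak, at chr6:88191689-88192138 in KO, had 276 fragments in KO (244 to 311) and 271 in WT (240 to 305). Gata1 carried 7 peaks in KO and 5 in WT, with 264 and 252 fragments at the strongest. Zfpm1, the gene of FOG1, carried 25 peaks in KO and 23 in WT and reached the ceiling in both. Gata3, of T cells and mast cells, had 173 fragments in KO and 127 in WT at its strongest site, a log2 of 0.36 (0.02 to 0.70). Gata4 had 1 weak WT peak of 20 fragments and no KO peak, and Gata5 and Gata6 had none in either list.

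The genes of proteins that work with GATA2 at DNA were nearly all bound, 18 of 19 in both genotypes (94.7%), with Fli1 as the exception in both. Of all protein-coding genes 61.0% were bound in KO and 56.6% in WT. Runx1 carried 33 peaks in KO and 34 in WT, Erg 35 and 34, and Tcf12, an E protein gene, 53 and 57. Tal1, of the basic helix-loop-helix partner, had 270 fragments in KO and 253 in WT, and Lyl1, its relative, 279 in both. Ldb1, which encodes the bridging protein of enhancer loops, had the widest gap of this list at the strongest shared peak of a gene, with 155 fragments in KO (132 to 181) and 84 in WT (67 to 104), a log2 of 0.80 (0.41 to 1.20). The background under its 3 pairs had a median log2 of −0.01, and none of them reached 2-fold. Lmo2, of the LIM protein in the same complex, had 7 peaks in KO and 4 in WT. Its strongest summit had 140 fragments in KO and 163 in WT, a log2 of −0.30 (−0.64 to 0.03), while its 3 pairs had a median log2 of 0.41, with 1 of them 2-fold or more higher in KO. Over the list's 205 pairs outside chromosome 5 the median log2 was 0.14, with 5 higher in KO and 0 lower.

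Cytokine receptor and signalling genes had 17 of 20 members bound in KO (85%) and 16 in WT (80%). More peaks in KO were present at 12 of the 17, with Kit, Sh2b3 and Flt3 of chromosome 5 among them, and fewer at 1. Over all protein-coding genes 6757 had more in KO, 2384 fewer and 4842 an equal number. Outside chromosome 5 their 47 pairs had a median log2 of 0.29, the highest of the lists, with 1 pair 2-fold or more higher and 0 lower. Csf2rb, the shared receptor chain for interleukin 3, interleukin 5 and GM-CSF, had 217 fragments in KO and 156 in WT, a log2 of 0.39 (0.09 to 0.70). Over its 5 pairs the median log2 was 0.33 for the fragments, 0.41 for the background and −0.23 for the fold enrichment. Reads of Csf2rb may be shared with its near-identical neighbour Csf2rb2. Cish, a feedback inhibitor of STAT5 signalling, had 206 in KO and 139 in WT, a log2 of 0.48 (0.16 to 0.80). Jak2 had 212 in KO and 163 in WT and Stat5b 162 in KO and 121 in WT, each with an interval of the log2 that included 0. The erythropoietin receptor gene Epor had 265 in KO and 240 in WT. Kitl, Socs1 and Socs3 had no peak in either list.

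In the stem and progenitor list 14 of 20 genes were bound in KO (70%) and 13 in WT (65%), not far above the 61.0% and 56.6% of all genes. Angpt1, a secreted ligand of the TIE2 receptor, carried 31 peaks in KO and 36 in WT, and Ikzf2, of a zinc finger factor, 46 in KO and 34 in WT. Over 32 pairs at Ikzf2 the median log2 was 0.43, with a background of 0.32 and a fold enrichment of 0.19. Msi2, of an RNA-binding protein, carried 47 peaks in KO and 40 in WT. Mecom was bound in KO alone, by 4 peaks of at most 12 fragments. The list's 154 pairs had a median log2 of 0.18, with 7 higher in KO and 2 lower, both at Angpt1.

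The genes of the red cell itself were bound throughout, with all 7 globin, all 10 heme synthesis, all 9 iron handling and all 15 membrane genes carrying a peak in both genotypes. Of all protein-coding genes 61.0% carried one in KO and 56.6% in WT. Hba-a2, an alpha globin gene, had 72 fragments in KO and 44 in WT at its strongest peak, a log2 of 0.63 (0.06 to 1.20), with a background of 0.69 over its 2 pairs. Its near-identical copy Hba-a1 had 61 in KO and 43 in WT, and reads of these copies may be shared between them. The beta globin gene Hbb-bt had 204 in KO and 192 in WT. In heme synthesis Alad, of the enzyme that makes porphobilinogen, had 230 in KO and 164 in WT, a log2 of 0.40 (0.11 to 0.70). Alas2, Uros, Cpox and Fech had a log2 of −0.10 to −0.01, with 263 to 281 fragments in KO and 249 to 283 in WT. At these heights, near the ceiling of the measure, a difference is understated. Of the iron genes outside chromosome 5, Tfrc, of the transferrin receptor, had 143 fragments in KO and 139 in WT, and the iron exporter gene Slc40a1 had 267 in KO and 263 in WT.

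Tmod1 was the exception among the red cell genes. It encodes tropomodulin, which caps the short actin filaments of the red cell membrane skeleton, and it carried 3 peaks in KO and 7 in WT. At its strongest site, chr4:46040689-46041028 in KO, the summit had 62 fragments in KO (47.5 to 79.5) and 193 in WT (167 to 222), a log2 of −1.72 (−2.16 to −1.30). Of its 3 pairs 2 were 2-fold or more lower in KO, the only ones in the membrane list. The background under these pairs was lower in KO too, with a median log2 of −1.14, which leaves a median of −0.80 for the deposited fold enrichment. The part of the background in this result was not tested. Over the 114 pairs of the membrane list the median log2 was 0.23, with none 2-fold or more higher.

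**Figure D4:**
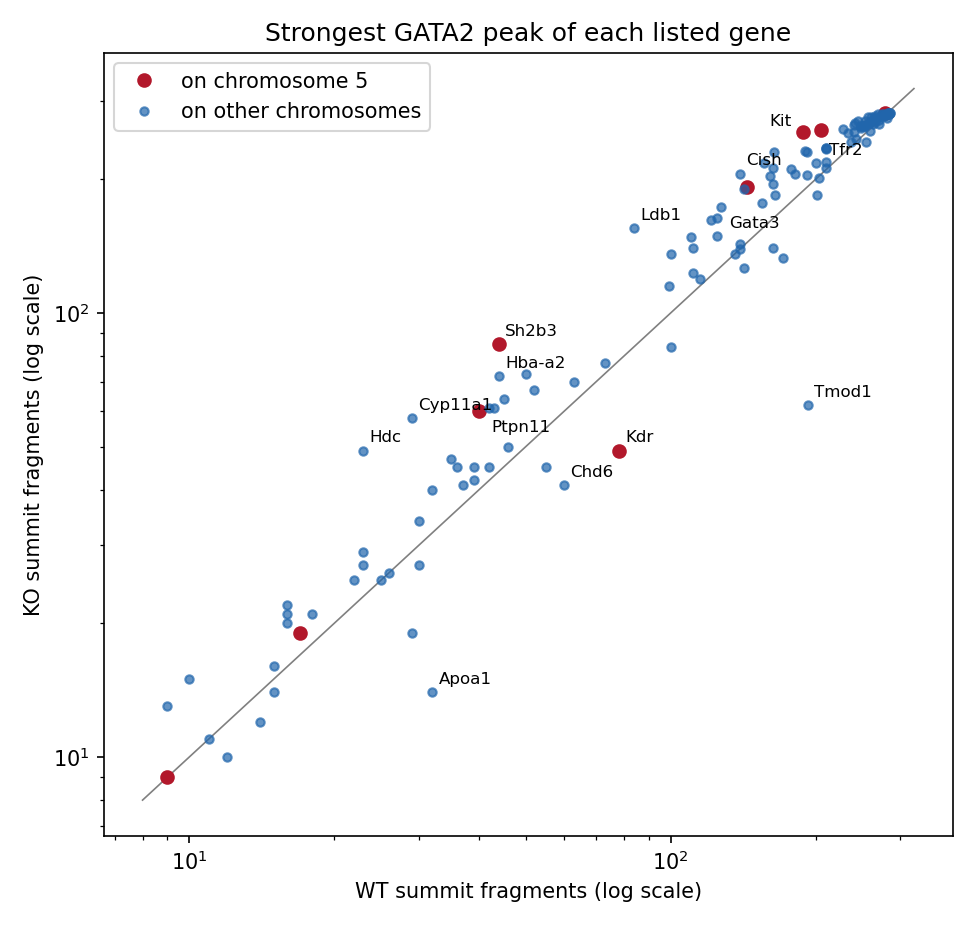
Summit fragments of the strongest GATA2 peak of each listed gene, KO (vertical axis) against WT (horizontal axis), both on log scales, for the 134 genes whose strongest peak was at the same site in both lists; the line marks equal numbers. Most genes lie close to the line, Tmod1 (62 in KO, 193 in WT) lies far below it, and Kit and Sh2b3 on chromosome 5 lie above it.

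Mast cell genes were bound at 14 of 18 members in each genotype (77.8%), beside 61.0% of all genes in KO and 56.6% in WT. The high affinity IgE receptor genes Ms4a2 and Fcer1a had 256 and 243 fragments in KO against 240 and 255 in WT, and Cpa3, of a granule protease, 280 in KO against 284 in WT. Hdc, which encodes the enzyme that makes histamine, had 49 fragments in KO (36.3 to 64.8) and 23 in WT (14.6 to 34.5), a log2 of 1.01 (0.26 to 1.79) with a background of 0.09. Cyp11a1, of steroid synthesis, had 58 in KO and 29 in WT, a log2 of 0.91 (0.25 to 1.61), with a median background of 0.00 over its 2 pairs. Fcer1g had a peak in KO alone, with 33 fragments, and Mitf in WT alone, with 13. Mcpt4, Mcpt8 and Siglecf had none in either list.

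Megakaryocyte and platelet genes were bound at 12 of 19 members in KO (63.2%) and 15 in WT (78.9%). Beside 61.0% of all genes in KO and 56.6% in WT, the KO share was near that of all genes. The 3 genes bound in WT alone were Gp6, Mmrn1 and P2ry12, each by peaks of at most 14 fragments, near the lowest values of the list. The platelet receptor genes Gp9, Gp5 and Itgb3 had 268, 234 and 232 fragments in KO against 258, 210 and 190 in WT. Itga2b, of an integrin chain of the fibrinogen receptor, had 126 in KO and 142 in WT, a log2 of −0.26 (−0.62 to 0.10). Endothelial genes were bound at 8 of 12 members in KO (66.7%) and 9 in WT (75%), with Eng, of endoglin, strongest at 149 fragments in KO and 125 in WT.

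The lists of other lineages differed in how many members were bound, beside 61% of all genes in KO and 56.6% in WT. Myeloid genes were bound at 5 of 12 members in KO and 4 in WT, and Mpo, Elane, Csf1r and Ly6g had no peak in either list. Cebpe, of a granulocyte factor, was bound strongly in both, with 280 fragments in KO and 275 in WT. Lymphoid genes were bound at 8 of 12 members in each, led by Lck with 206 fragments in KO and 181 in WT. Non-blood genes were bound at 8 of 18 members in KO and 7 in WT. Apoa1, of liver, had 14 fragments in KO and 32 in WT, a log2 of −1.28 (−2.30 to −0.33), with a background of 0.31 in the other direction. The CHD remodeller genes were bound at 8 of 9 members in KO and 7 in WT. Of them 6 had more peaks in KO, beside 6757 of all genes with more, 2384 with fewer and 4842 with an equal number. Only Chd9 had fewer, with 25 in KO and 28 in WT. The 57 pairs of the list had a median log2 of 0.17, with 2 higher in KO and 0 lower. Chd6 had 41 fragments in KO and 60 in WT at its strongest peak, a log2 of −0.63 (−1.24 to −0.04), while the median over its 5 pairs was 0.18.

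The pairs that differed most outside chromosome 5 lay at other genes than those of the lists, with Tmod1 as the exception. Plod2, of a collagen lysyl hydroxylase, led the pairs higher in KO, at chr9:92551750-92552146, with 143 fragments in KO (121 to 168) and 21 in WT (13.0 to 32.1), a log2 of 2.68 (2.02 to 3.42). Its background was lower in KO, at −0.26. Macrod2 had 144 fragments in KO and 24 in WT, and Immp2l, of a mitochondrial inner membrane peptidase, 190 in KO and 32 in WT. Allc and Colec11, which lie in the same stretch of chromosome 12, had 167 and 85 fragments in KO against 28 and 14 in WT. C7, of a complement component, had 175 in KO and 30 in WT, and Alox15, of a lipoxygenase, 70 in KO and 13 in WT. Hs3st3a1, Nyap2 and Piezo2, the last of a mechanosensitive channel, made up the 10 with 47 to 79 fragments in KO and 9 to 13 in WT. The background was higher in KO at 9 of these 10, by up to 1.73 on the log2 scale at C7. A KO RUNX1 peak overlapped 7 of the 10 and a WT RUNX1 peak 2, beside 29.2% with KO RUNX1 and 25.8% with WT RUNX1 over the 48260 pairs that differed by less than 2-fold.

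Among the 10 lowest pairs, Hsf3, of a heat shock factor, had 12 fragments in KO (6.20 to 20.96) and 91 in WT (73.3 to 112) at chrX:96417923-96418099, a log2 of −3.01 (−4.01 to −2.13), with a background of 0.09. Zfp704 had 20 in KO and 144 in WT, Rnf180, of a ubiquitin ligase, 41 in KO and 169 in WT, and Rgs6, of a G protein regulator, 33 in KO and 153 in WT. Plxnc1, of a semaphorin receptor, and Ano6, of a phospholipid scramblase, each had 11 in KO and 64 in WT. Tdrd7, which neighbours Tmod1 on chromosome 4, had 28 in KO and 143 in WT, and a further Tmod1 site 16 in KO and 86 in WT. Kcns3 and BC048679 had 13 and 11 in KO against 77 and 51 in WT. The background was lower in KO at 9 of the 10, by up to 1.93 on the log2 scale at Plxnc1. A WT RUNX1 peak overlapped all 10 and a KO RUNX1 peak 2.

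RUNX1 peaks and the background were also unequal over the whole set of such pairs. Among the 1139 pairs higher in KO, 27.2% had a KO RUNX1 peak and 10.3% a WT RUNX1 peak, and 17.5% had one in KO alone against 0.527% in WT alone. Among the 831 pairs lower in KO, 20.7% had a KO RUNX1 peak and 44.5% a WT RUNX1 peak, with 1.56% in KO alone and 25.4% in WT alone. Among the 48260 pairs in between, 29.2% had a KO and 25.8% a WT RUNX1 peak, with 6.36% in KO alone and 2.93% in WT alone. Beside the pairs in between, the pairs higher in KO had a lower WT share, a KO share of similar size and more RUNX1 in KO alone. Median fragments were 43 in KO and 17 in WT at the pairs higher in KO. They were 18 and 44 at those lower, and 31 and 27 at those in between. The RUNX1 shares of these pairs were not compared at equal height. The median background difference was a log2 of 0.13 at the pairs higher in KO and −0.33 at those lower. Across all 50230 pairs outside chromosome 5 the differences in fragments and in background had a Pearson r of 0.187, a description of pairs that share the same libraries. The part of the background in these differences was not tested, and a GATA2 and a RUNX1 list of 1 genotype share it.

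Several long genes carried unequal numbers of peaks in the genotypes. Immp2l carried 111 KO and 48 WT peaks over its 932 kb on chromosome 12, of which 66 were KO-only and 3 WT-only. Its median background, relative to the lowest of the list, was 2.21 in KO and 1.45 in WT. Fgf12, of a fibroblast growth factor family member, carried 18 KO and 0 WT peaks on chromosome 16, at the lowest background in KO and with up to 134 fragments. Piezo2 carried 32 KO and 13 WT peaks, Arhgap15 27 and 12, Exoc4 60 and 38, and Lrp1b, of a large lipoprotein receptor family member, 105 and 81. In the other direction Ndst4, of a heparan sulfate enzyme, carried 10 KO and 30 WT peaks, of which 2 were KO-only and 22 WT-only. Adarb2 carried 5 KO and 18 WT peaks, Plxnc1 6 and 19, Syne1 8 and 19, Tanc2 10 and 20, and Zfp704 4 and 12. Plxnc1, Zfp704, Immp2l and Piezo2 thus stood out both by number of peaks and by height of a shared one.

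On chromosome 5, where KO was higher as a whole, Kit carried the most GATA2 peaks of the listed genes. It encodes the receptor for stem cell factor, is a known target of GATA2, and had 22 peaks in KO and 16 in WT. Its strongest summit, at chr5:75578943-75580678 in KO, had 255 fragments in KO (225 to 288) and 188 in WT (162 to 217), a log2 of 0.35 (0.08 to 0.63). Its 13 pairs had a median log2 of 0.76, above the 0.46 of the chromosome, and 4 of them were 2-fold or more higher in KO. The background under these pairs was close to equal, at 0.09, and the fold enrichment stood at 0.45, unlike the chromosome, where the values were 0.45 and 0.11. Sh2b3, of an adaptor that damps cytokine signalling, had 85 fragments in KO and 44 in WT, a log2 of 0.86 (0.32 to 1.42), with a background of 0.26 over its 3 pairs. Ptpn11, of the phosphatase SHP2, had 60 in KO and 40 in WT. Flt3, of another receptor kinase, was bound in KO alone, by 2 peaks of at most 16 fragments.

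Other listed genes of chromosome 5 did not all follow. Pf4, of platelet factor 4, had 282 fragments in KO and 279 in WT, at the ceiling, and its neighbour Ppbp 192 in KO and 144 in WT. Kdr, of a VEGF receptor and close to Kit, was lower in KO at its strongest site, with 49 fragments in KO (36.3 to 64.8) and 78 in WT (61.7 to 97.3), a log2 of −0.76 (−1.30 to −0.22). The liver genes Alb and Afp had at most 30 fragments, Alb with 9 in both lists and Afp in KO alone, and the intestinal factor gene Cdx2 had no peak. Of all 32 pairs at listed genes of the chromosome the median log2 was 0.69, beside 0.49 for the 2305 pairs of all its genes. The 0.69 leans on the cytokine list, whose 18 pairs, 13 of them at Kit, had 0.89. The 4 pairs each of the iron, platelet and endothelial lists had 0.60, 0.34 and 0.06, and the single pairs of Gfi1 and Alb 0.08 and −0.09.

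The largest single differences on chromosome 5 were at Tpst2, of a tyrosine sulfation enzyme, with 110 fragments in KO and 25 in WT, and Auts2, with 106 in KO and 29 in WT. Htt had 91 in KO and 23 in WT, although its summits lay 340 bp apart, Pitpnm2 88 and 24, and Slc7a1, of an arginine transporter, 59 and 16. The lowest was Ssh1, of an actin regulating phosphatase, with 19 in KO and 82 in WT, a log2 of −2.19 (−3.00 to −1.46). Rgs12, Mad1l1, Gbx1 and Actr3b followed, with 16 to 36 in KO and 38 to 102 in WT. By number of peaks Pcdh7 carried 94 in KO and 61 in WT, Auts2 71 and 45, Kcnip4 58 and 37, Fryl 38 and 24, and Reln 28 and 13.

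Peaks of 1 genotype alone were set beside shared ones for what else lay there. RUNX1 of the same genotype overlapped 6.54% of KO-only peaks (6.24 to 6.85) and 5.61% of WT-only peaks (5.21 to 6.02), against 29.8% of shared peaks in KO and 26.3% in WT. RUNX1 overlap climbed with the height of the peaks in all 4 classes, and from 16 fragments on the unshared classes had more of it at equal height. Of peaks with 31 to 40 fragments, 32.6% of KO-only peaks (29.8 to 35.5) and 18.7% of shared KO peaks (17.8 to 19.6) had KO RUNX1, and 39.7% of WT-only peaks (33.4 to 46.4) and 19.5% of shared WT peaks (18.5 to 20.5) had WT RUNX1. Of KO-only peaks of that height 21.5% (19.1 to 24.1) lay within 1 kb of a gene end, against 7.95% of shared KO peaks (7.33 to 8.62). For WT-only peaks these shares were 10.9% (7.19 to 15.7) against 10.0% of shared WT peaks (9.27 to 10.8). S2P of the same genotype overlapped 18.0% of KO-only and 11.7% of WT-only peaks, beside 20.8% of shared KO and 20.1% of shared WT peaks. S2P of the other genotype overlapped nearly as many, 17.7% of KO-only and 12.3% of WT-only peaks. The S2P at these peaks was thus not particular to the genotype with the GATA2 peak. S2P of the other genotype was not compared at equal height. At equal height, S2P of the same genotype went opposite ways at KO-only and WT-only peaks. In each height class from 11 to 60 fragments, KO-only peaks had more S2P than shared KO peaks, and WT-only peaks less than shared WT peaks. With 31 to 40 fragments these shares were 29.3% of KO-only and 24.2% of shared KO peaks, and 12.7% of WT-only and 22.1% of shared WT peaks.

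**Figure D5:**
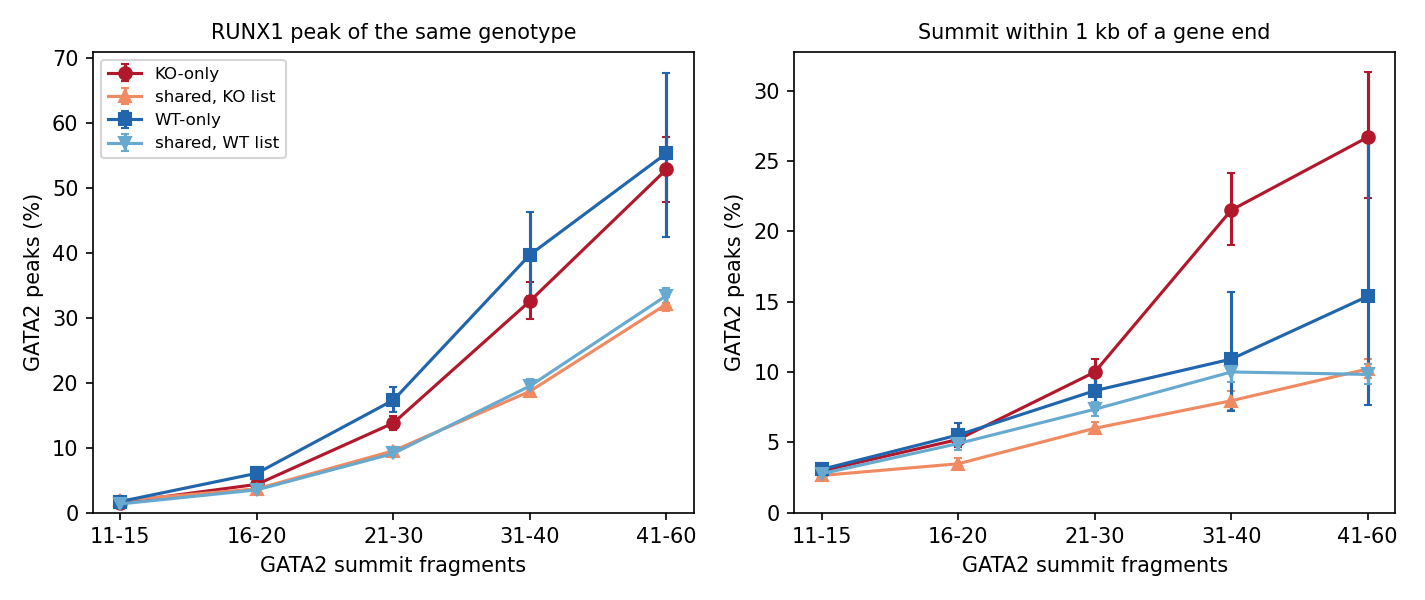
Share of GATA2 peaks with a RUNX1 peak of the same genotype (left) and with the summit within 1 kb of a gene end (right), by summit fragments, with exact 95% intervals. From 21 fragments on, KO-only and WT-only peaks lie above shared peaks of the same height for RUNX1, and KO-only peaks lie highest for gene ends.

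Paired sites with RUNX1 were stronger than those without, in a range where the measure nears its ceiling, so their differences cannot be set against each other at equal height here. Outside chromosome 5 the 11305 pairs with RUNX1 in both genotypes had 112 fragments in KO and 100 in WT at the median and a median log2 of 0.03. The 34009 pairs with RUNX1 in neither had 24 in KO and 21 in WT and a median log2 of 0.11. Of the pairs without RUNX1 2.42% were 2-fold or more higher in KO, and of those with it 0.982%, while 1.32% of the pairs without it and 1.41% of those with it were lower. The 3484 pairs within 1 kb of a gene end had a median log2 of 0.16, and the 46746 farther away 0.08. Those near a gene end were taller too, with medians of 44 fragments in KO and 37 in WT against 31 and 27. They were not compared at equal height.

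Promoters with a summit held GATA letters more often than promoters at large. GATAA was present on either strand in 22.5% of all 21237 promoter windows, which cover 17469 of the protein-coding genes. It was present in 56.3% of the 707 windows with a KO summit (52.5 to 59.99) and in 60.1% of the 602 with a WT summit (56.1 to 64.1). Among the 506 with a summit in both lists the share was 63.2%, and 5 of the 6 windows printed above hold it. It was lower where only 1 genotype had a summit, 38.8% of 201 KO windows (32.0 to 45.9) and 43.8% of 96 WT windows (33.6 to 54.3). The share also rose with height, to 65.1% of 361 windows with a KO summit of 50 or more fragments. For WT summits of that height it was 67.6% of 278 windows. Windows bound in 1 genotype and in both were not compared at equal height. The letters CTG followed by GATAA after 8 or 9 bases, on either strand, the layout at which TAL1 and GATA factors sit side by side, were in 1.30% of all windows and 10.9% of those bound in both lists. The altered letters GATTA, used for comparison and like the CTG layout chosen after seeing the data, were in 19.6% of all windows and 31.4% of those bound in both.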

How the data were processed

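GATA2, RUNX1 and S2P were measured by ChIP-seq in Chd7 knockout and wild-type G1ER cells, 14 samples with inputs. Bowtie2 2.2.1 and MACS2 2.1.0 on GRCm38 (mm10) are named per the submitters' processing notes, without their settings. The authors deposited each list as peaks with a score, which is 10 times the −log10 q, a fold enrichment (the ratio of summit pileup to local background), −log10 p and −log10 q values and a summit offset in bp. Both GATA2 lists ended at a q of 0.05. Fold and score are the authors' own values.

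Fragments at each summit and their local background were solved for from the −log10 p together with the fold. A whole number resulted for 100% of summits within 0.005 of the −log10 p, against 3.63% in KO and 4.25% in WT at a wrong scale of 0.93. The total number of reads is not given in the sources used here, so the depth is known only through these fragments and the lowest background. Exact Poisson intervals are given for fragments, exact Clopper-Pearson intervals for shares and exact binomial intervals for single ratios. They cover counting error only: a peak is no replicate, and PCR copies were not told apart by molecular identifiers.

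Genes are the protein-coding genes of the RefSeq table of GRCm38.p6, which has neither strand nor exons. Of the listed genes 1 (Tpsab1) was not in the table. The members and the gene lists were chosen with earlier results of these data known. Named are the genes of the lists, the 10 highest and 10 lowest pairs outside chromosome 5 and the 5 highest and 5 lowest on it (1 pair a gene, at least 30 fragments in the stronger list, predicted genes passed over), the 10 genes with most and the 10 with fewest KO minus WT peaks outside chromosome 5 and the 5 with most on it, and 6 promoters by fragments. Genes of chromosome 18 were left out of the choice of promoters. Python 3.11.15 with numpy 2.4.6, pandas 2.3.3 and scipy 1.17.1 was used, and the steps were tested on simulated data. The RUNX1 and S2P lists served only as other readouts at GATA2 peaks. Alternatives changed the q limit, the overlap, the list length, the scaling, the height measure, the gene window and chromosome 5.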

Additional observations from a re-analysis of the deposited data

How the results depend on the processing

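No paired analysis was possible because each genotype had 1 GATA2 library and no test was made, and for the same reason no replicate could be left out. Of 164 summary values recomputed under 11 alternatives 130 stayed within the limits set for them, 34 moved and 0 turned direction. Of 302 values of the 30 named pairs 28 moved, all under the deposited fold enrichment, and 0 turned. Many of these values could not change under a given alternative, so the tally does not show how firm the results are. Gene windows, for example, do not enter the shared shares, and the log2 of a named pair changes only with the scaling or height measure. The limits were also wide. They took in a fall from 1497 to 1080 higher pairs at −log10 q of at least 5. With no gene window they took in a fall from 11741 to 8987 genes bound in both lists. Not all 30 pairs existed throughout: 24 were left at −log10 q of at least 5, 22 with an overlap of 50% (without Hsf3, Kcns3, C7 and Hs3st3a1, among others), 27 with equal numbers of top peaks and 29, without Htt, with close summits. With −log10 q of at least 5 the shared shares were 69.3% in KO and 82.3% in WT and the RUNX1 shares of KO-only and WT-only peaks 7.88% and 6.87%. With an overlap of 50% of each peak these values were 64.3%, 75.9%, 8.25% and 8.30%, and with summits within 100 bp they were 64.8%, 76.6%, 7.30% and 6.72%. With equal numbers of top peaks the ratio of KO to WT peaks is 1 by construction, the shared shares were 75.6% in KO and 75.9% in WT, 959 genes were bound in WT alone, 8.03% of KO-only peaks had RUNX1 and the median log2 outside chromosome 5 was 0.11. With the deposited fold enrichment that median was 0.10, the median on chromosome 5 was 0.11, and 2919 pairs were 2-fold or more higher and 1419 lower. Without scaling the medians were 0.17 outside chromosome 5 and 0.54 on it, and 2358 pairs were higher. Among pairs under 200 fragments the medians were 0.10 and 0.50, and with the deposited fold enrichment as well, an alternative chosen after seeing the data, they were 0.11 and 0.14, with 2862 pairs higher and 1330 lower. Without chromosome 5 the ratio of peaks was 1.17 and the shared shares 69.4% in KO and 81.1% in WT. The division by the local background lowers the median of chromosome 5 by construction, and the cause of the other moves was not tested. Fragment numbers limit the weakest peaks, and the ceiling limits the strongest.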

Other observations

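Windows of 1 Mb in which GATA2 peaks of 1 genotype alone were concentrated are given here, by limits chosen with the values known. They hold few of the 25163 KO-only and 12630 WT-only peaks. Of 1743 windows with at least 10 KO peaks, 9 had 75% or more KO-only peaks. The window from 28 to 29 Mb of chromosome 16, which holds Fgf12 and Mb21d2, had 21 KO peaks and 1 WT peak. On the X chromosome the window from 143 to 144 Mb, with the neuronal genes Dcx and Pak3, had 23 KO and 7 WT peaks. The window from 92 to 93 Mb of chromosome 3, with the epidermal Sprr and Lce gene families, whose near-identical copies can share reads, had 15 KO and 3 WT peaks. On chromosome 5 the window from 47 to 48 Mb, with the axon guidance gene Slit2, had 36 KO and 8 WT peaks.

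Of 1630 windows with at least 10 WT peaks, 23 had 50% or more WT-only peaks. The densest, from 83 to 84 Mb of chromosome 14, had 54 KO and 100 WT peaks and no protein-coding gene of the table. The window of Ndst4 and Ugt8a, from 125 to 126 Mb of chromosome 3, had 42 KO and 72 WT peaks. The window from 9 to 10 Mb of that chromosome, with Zfp704 and Pag1, had 32 KO and 51 WT peaks, and the window from 30 to 31 Mb of chromosome 4 had 3 KO and 13 WT peaks.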
